A study of Mus musculus with 6 samples.

Results

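Collagens are the triple-helical proteins of the extracellular matrix, and their genes were examined here in tumors of the large intestine. The members are the protein-coding genes of the table whose symbol reads Col, a number, a and a number, which gave 44 of the 54532 listed genes. Whole tumor RNA was sequenced from 3 tumors of Tmem173fl/fl mice, labelled WT, and from 3 tumors of Tmem173fl/fl mice that also carry Lyz2-Creert2 (Tmem173iΔmye mice), labelled CRE, all on the C57BL/6N background. Both groups received the carcinogen azoxymethane (AOM), 3 cycles of the colon irritant dextran sodium sulfate (DSS) and, once tumors had formed, tamoxifen (TAM), so the controls carry the loxP-flanked Tmem173 alleles and the same agents. Tmem173 encodes STING, a sensor adaptor of cytosolic DNA signalling, and the Lyz2-driven Cre acts in myeloid cells, 1 of the cell types that a whole tumor holds. The age at sampling, and whether the tumors of a group came from separate mice, are not given in the sources used here, so p-values measure the spread between these tumors.

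A collagen chain is built of Gly-X-Y repeats, is hydroxylated and folded into a trimer in the endoplasmic reticulum, secreted, trimmed by proteinases and crosslinked by lysyl oxidases. Fibrillar collagens (types I, II, III, V, XI, XXIV and XXVII) give tensile strength to the stroma, fibril-associated collagens (IX, XII, XIV, XVI and relatives) sit on those fibrils, type IV forms the sheet of the basement membrane, type VI forms beaded filaments around cells, and the multiplexins XV and XVIII hang from basement membranes and release the fragments restin and endostatin. In the gut, fibroblasts and smooth muscle cells make most fibrillar and type VI collagen, while endothelial and epithelial cells lay down basement membrane with them.

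Gene counts summed to between 15329810 and 16533732 in a tumor. Tmem173 had 1748, 2911 and 1705 counts in Tmem173fl/fl tumors 1, 2 and 3 and 2291, 2245 and 1953 counts in Tmem173iΔmye tumors 1, 2 and 3, a log2 fold change of 0.00 (SE 0.24), so its level, read in all cells of the tumor at once, did not separate the groups. Epithelial markers were abundant in each tumor (Epcam, a surface protein of gut epithelium, 788 to 1142 FPKM). Reads of 4 Y-linked genes numbered 2655 to 3547 in 1 Tmem173fl/fl tumor (replicate 1) and 2 Tmem173iΔmye tumors (replicates 1 and 2) and at most 2 elsewhere, so the groups are not balanced for sex. FPKM, used below for levels, is the number of reads per kilobase of gene, scaled by the authors to a common library size. A gene was tested when its mean FPKM over the 6 tumors was at least 0.5, which held for 16426 genes and for 26 of the 44 collagen genes.

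The promoters of 9 start sites are shown before the values, each running from 250 bases before the start site to 50 bases after it. They belong to the pair of type IV genes that share a promoter and to the most abundant fibrillar genes in the RefSeq table with a chain in type I or III collagen. The others belong to tested members in that table whose tumors did not overlap between the genotypes. Col9a3 and Col14a1, also tested and without overlap, have no window there. RefSeq (GRCm38.p6) gave 38 such windows for 35 of the 44 genes. Capitals mark matches, on either strand, to TATAAA, to CCAAT and to GGGCGG.
Col4a1, chr8:11312777-11313076 (minus strand): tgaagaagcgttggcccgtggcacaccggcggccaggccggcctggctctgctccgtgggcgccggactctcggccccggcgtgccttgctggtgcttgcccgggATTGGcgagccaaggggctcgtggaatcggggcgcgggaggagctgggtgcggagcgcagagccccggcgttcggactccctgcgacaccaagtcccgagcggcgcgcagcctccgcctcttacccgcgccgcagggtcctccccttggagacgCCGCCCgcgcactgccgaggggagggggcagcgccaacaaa
Col4a2, chr8:11312555-11312854 (plus strand): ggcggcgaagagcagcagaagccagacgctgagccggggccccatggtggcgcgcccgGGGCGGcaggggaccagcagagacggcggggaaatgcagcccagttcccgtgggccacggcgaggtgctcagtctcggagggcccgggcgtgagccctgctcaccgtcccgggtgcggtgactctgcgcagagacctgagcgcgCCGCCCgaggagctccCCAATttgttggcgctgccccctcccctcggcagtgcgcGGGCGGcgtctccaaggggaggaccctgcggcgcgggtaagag
Col3a1, chr1:45311288-45311587 (plus strand): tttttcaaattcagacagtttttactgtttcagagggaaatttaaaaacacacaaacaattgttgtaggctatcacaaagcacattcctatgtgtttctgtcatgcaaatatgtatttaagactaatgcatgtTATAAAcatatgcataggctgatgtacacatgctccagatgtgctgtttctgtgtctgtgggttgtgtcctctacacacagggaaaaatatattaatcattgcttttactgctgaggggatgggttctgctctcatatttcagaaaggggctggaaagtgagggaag
Col1a2, chr6:4505368-4505667 (plus strand): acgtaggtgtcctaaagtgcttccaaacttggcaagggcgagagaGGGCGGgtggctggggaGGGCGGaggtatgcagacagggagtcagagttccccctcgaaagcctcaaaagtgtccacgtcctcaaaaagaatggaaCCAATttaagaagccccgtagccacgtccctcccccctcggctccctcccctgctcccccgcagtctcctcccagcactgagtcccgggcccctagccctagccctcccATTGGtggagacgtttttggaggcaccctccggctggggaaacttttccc
Col18a1, chr10:77166481-77166780 (minus strand): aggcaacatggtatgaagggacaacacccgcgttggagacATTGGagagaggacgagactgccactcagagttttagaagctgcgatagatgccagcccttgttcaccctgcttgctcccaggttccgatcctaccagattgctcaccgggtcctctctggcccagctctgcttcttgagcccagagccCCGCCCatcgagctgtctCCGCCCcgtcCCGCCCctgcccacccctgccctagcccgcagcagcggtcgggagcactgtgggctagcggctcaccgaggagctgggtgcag
Col18a1, chr10:77113656-77113955 (minus strand): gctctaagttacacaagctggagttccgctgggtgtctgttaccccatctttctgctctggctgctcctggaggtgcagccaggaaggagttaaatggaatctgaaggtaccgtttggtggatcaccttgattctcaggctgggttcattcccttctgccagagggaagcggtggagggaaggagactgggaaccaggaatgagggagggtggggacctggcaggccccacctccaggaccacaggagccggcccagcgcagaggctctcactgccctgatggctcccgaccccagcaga
Col15a1, chr4:47207762-47208061 (plus strand): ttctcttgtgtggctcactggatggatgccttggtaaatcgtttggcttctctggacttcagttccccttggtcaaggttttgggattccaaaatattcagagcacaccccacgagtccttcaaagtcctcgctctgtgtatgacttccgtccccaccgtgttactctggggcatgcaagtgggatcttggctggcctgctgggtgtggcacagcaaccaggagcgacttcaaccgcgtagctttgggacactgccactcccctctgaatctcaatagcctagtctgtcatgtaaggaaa
Col5a3, chr9:20815018-20815317 (minus strand): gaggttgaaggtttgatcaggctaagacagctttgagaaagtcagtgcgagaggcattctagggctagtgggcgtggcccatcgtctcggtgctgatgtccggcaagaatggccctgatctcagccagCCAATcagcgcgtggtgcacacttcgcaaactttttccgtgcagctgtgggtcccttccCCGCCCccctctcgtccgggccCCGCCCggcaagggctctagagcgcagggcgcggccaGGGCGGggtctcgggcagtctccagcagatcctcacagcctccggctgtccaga
Col11a2, chr17:34038888-34039187 (plus strand): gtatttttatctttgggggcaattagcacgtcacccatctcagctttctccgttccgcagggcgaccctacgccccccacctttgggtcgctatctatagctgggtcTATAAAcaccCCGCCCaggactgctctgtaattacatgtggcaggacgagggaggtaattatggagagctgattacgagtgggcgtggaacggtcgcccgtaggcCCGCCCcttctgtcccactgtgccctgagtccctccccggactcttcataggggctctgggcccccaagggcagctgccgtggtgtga
The start sites of Col4a1 and Col4a2 lie 21 bases apart on opposite strands, and 78 bases belong to both windows. Col18a1 has 2 listed start sites, of which the upstream window holds 3 GGGCGG matches and 1 CCAAT match and the downstream window no match to any of the 3 motifs. Col15a1, the other multiplexin, has no match either. Over the 38 collagen windows, 5 (13.2%) held TATAAA, 13 (34.2%) held CCAAT and 23 (60.5%) held GGGCGG, while 13.6%, 37.4% and 35.7% of all 32851 RefSeq windows did. In the collagen windows 2 pairs of matches overlapped, both of GGGCGG with itself. Such a match describes the letters of the window and is not a measured binding site.

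The collagen mRNA of these tumors was mainly that of types I, III and IV. Col1a1, Col1a2 and Col3a1 together made up 42.0% to 48.9% of the summed collagen FPKM of a tumor, and Col4a1 with Col4a2 15.9% to 20.1%. All 44 genes together took 0.270%, 0.271% and 0.355% of the counts in Tmem173fl/fl tumors 1, 2 and 3 and 0.284%, 0.402% and 0.350% in Tmem173iΔmye tumors 1, 2 and 3. The shares overlapped, with Tmem173iΔmye replicate 2 the highest of the 6 tumors. In whole tumors, fewer cells of a type and less RNA per cell cannot be told apart.

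**Figure D1:**
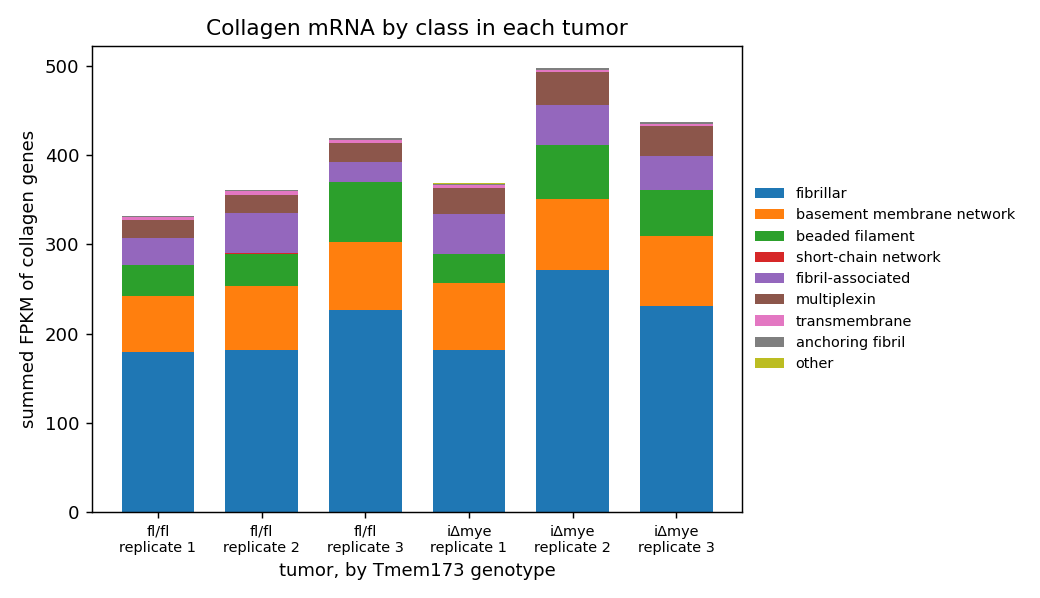
Summed FPKM of the 44 collagen genes in each tumor (bar height, linear axis from 0), split by class. The sums were 332, 360.3 and 419 in Tmem173fl/fl and 368, 497 and 437 in Tmem173iΔmye tumors, with the fibrillar class the largest part of every bar.

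The comparison of genotypes asks whether removing STING from myeloid cells after tumor formation goes with a different matrix programme. No gene of the 16426 tested, and thus no collagen gene, reached an adjusted p under 0.05 by edgeR (quasi-likelihood, Benjamini-Hochberg adjusted). At an unadjusted p under 0.05 edgeR listed 1008 genes (6.14%), and DESeq2 gave 28 genes with an adjusted p under 0.05, none of them a collagen. Of the 26 collagen genes tested, 7 (26.9%) had an unadjusted p under 0.05, 6 of them higher and 1 lower in Tmem173iΔmye tumors, beside 3.23% higher and 2.90% lower among all genes. The count was 4 without Tmem173iΔmye replicate 1 and also 4 without Tmem173iΔmye replicate 2. The log2 fold change of Tmem173iΔmye over Tmem173fl/fl was above 0 for 21 of the 26, beside 49.4% of all genes, with a median of 0.25 beside a median over all genes within 0.01 of 0. That median was 0.11 over all 44 members with no filter and 0.39 without Tmem173fl/fl replicate 3. For its colitis data, a figure legend of the study names an adjusted p under 0.05. The limits in the study's methods, called the study's limits here, ask for a change of 1 or more on the log2 scale together with an unadjusted p under 0.05. They were met by 2 collagen genes, Col9a3 and Col11a2, both higher, where 2.12% of all genes met them (1.26% higher and 0.864% lower). Without Tmem173fl/fl replicate 3, without Tmem173iΔmye replicate 1, or with a covariate for Y-linked reads, 0 collagen genes met both limits, and without Tmem173iΔmye replicate 2 only Col11a2 did. The values of 6 of the 26 did not overlap between the groups, 5 being higher and 1 lower in Tmem173iΔmye tumors, where 12.5% of all genes did not overlap (6.03% higher and 6.47% lower). Markers of fibroblasts also had a median log2 fold change above 0 (0.39) and those of smooth muscle one below 0 (-0.51, or -0.90 without Tmem173iΔmye replicate 3), with values given at the end, and their part in the collagen values was not tested.

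**Figure D2:**
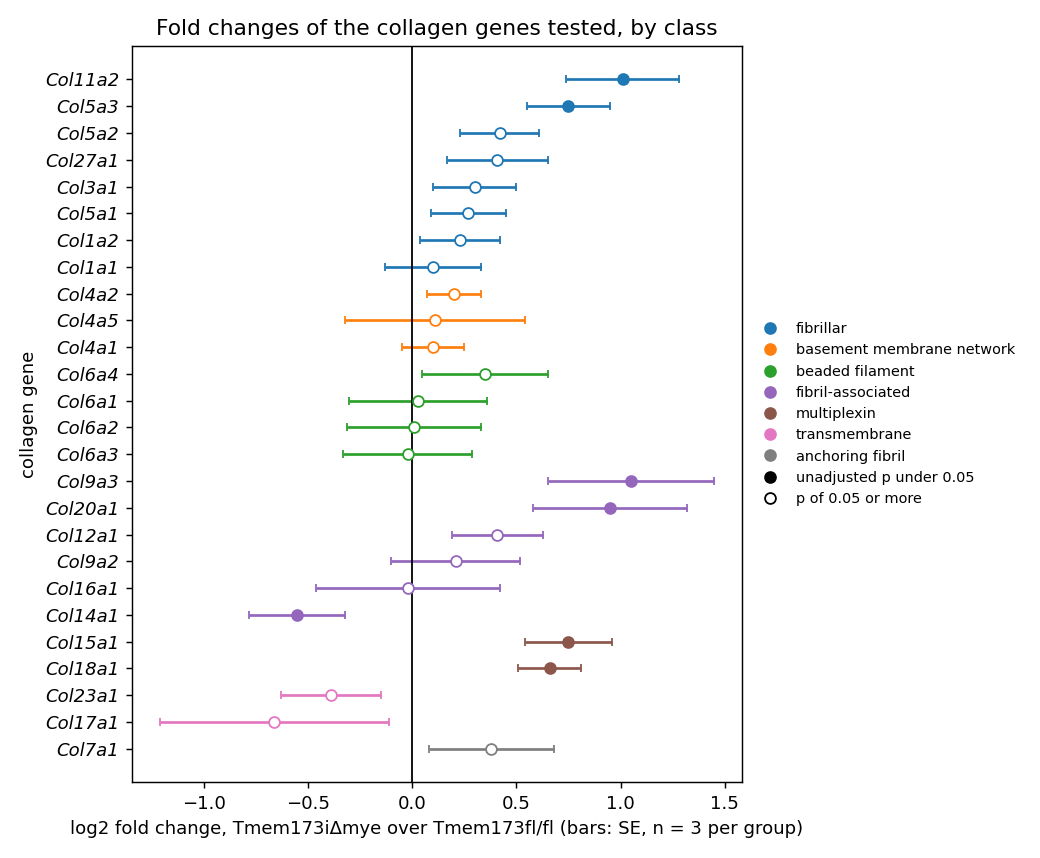
Log2 fold change of Tmem173iΔmye over Tmem173fl/fl tumors for the 26 collagen genes tested, with SE (n = 3 per group), coloured by class. Filled points have an unadjusted p under 0.05, and 21 of the 26 points lie right of 0, from Col9a3 at 1.05 down to Col17a1 at -0.66 on the left.

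Both multiplexins had higher values in Tmem173iΔmye tumors. Col18a1 (ENSMUSG00000001435, chr10:77052178-77166548, minus strand, GRCm38) encodes the heparan sulfate-bearing collagen from which endostatin is cut. Its FPKM was 17.5, 17.3 and 19.5 in Tmem173fl/fl tumors 1, 2 and 3 and 24.8, 33.2 and 28.1 in Tmem173iΔmye tumors 1, 2 and 3. The groups did not overlap, and the Tmem173fl/fl tumors lay close together. The means were 18.1 ± 1.21 (SD, n = 3) and 28.7 ± 4.23 (SD, n = 3), giving 0.66 as log2 fold change (SE 0.15, edgeR adjusted p = 0.742), and its unadjusted p from edgeR of 0.00207 was the lowest among the collagen genes. Col15a1 (ENSMUSG00000028339, chr4:47208161-47313167, plus strand), whose product bridges basement membranes and the fibrils beneath them, had 2.47, 2.80 and 2.06 FPKM against 4.19, 3.23 and 4.89. No Tmem173iΔmye tumor was as low as a Tmem173fl/fl tumor, and the log2 fold change was 0.75 (SE 0.21, edgeR adjusted p = 0.742). The order of tumors differed between the genes, with Tmem173iΔmye replicate 2 highest for Col18a1 and lowest of its group for Col15a1. The pair made up 6.03%, 5.59% and 5.15% of the summed collagen FPKM of Tmem173fl/fl and 7.87%, 7.33% and 7.55% of that of Tmem173iΔmye tumors. With Y-linked reads as a covariate the log2 fold changes were 0.66 for Col18a1 and 0.80 for Col15a1.

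Among the 8 fibrillar genes tested, log2 fold changes ran from 0.10 for Col1a1 to 1.01 for Col11a2, the median being 0.35. Of the 8 genes, 2 (25.0%) had an unadjusted p under 0.05, beside 6.14% of all genes. Col1a1 and Col1a2 encode the chains of type I collagen, the main fibril of the stroma. Col1a1 had 70.1, 85.2 and 93.8 FPKM in Tmem173fl/fl and 63.4, 112 and 92.2 FPKM in Tmem173iΔmye tumors. The lowest and the highest of the 6 tumors were both Tmem173iΔmye, and the log2 fold change of 0.10 (SE 0.23) was below its error. Col1a2 had 31.9, 30.6 and 40.3 FPKM against 34.9, 48.4 and 37.8, again with overlap (log2 fold change 0.23, SE 0.19). Col3a1, the chain of the thin fibrils of type III collagen, had 57.7, 48.3 and 66.6 FPKM against 56.6, 83.1 and 72.5, a log2 fold change of 0.30 (SE 0.20). For these abundant genes the difference between genotypes did not exceed the spread between tumors.

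Type V collagen nucleates the fibrils of type I, and its chains Col5a1 and Col5a2 had log2 fold changes of 0.27 (SE 0.18) and 0.42 (SE 0.19), with overlapping groups. Col5a2 had 7.68, 5.98 and 9.77 FPKM in Tmem173fl/fl and 10.6, 11.1 and 9.69 FPKM in Tmem173iΔmye tumors, and only Tmem173fl/fl replicate 3 reached the range of the other group. The third chain, Col5a3 (ENSMUSG00000004098, chr9:20770050-20815067, minus strand), had 1.95, 2.44 and 2.50 FPKM against 3.91, 3.08 and 4.63. Its groups did not overlap, and the log2 fold change was 0.75 (SE 0.20, edgeR adjusted p = 0.742). Col11a2 (ENSMUSG00000024330, chr17:34039437-34066685, plus strand), a chain of the type XI collagen that nucleates cartilage fibrils, was near the limit of testing, with 62, 58 and 50 counts in Tmem173fl/fl and 138, 93 and 117 counts in Tmem173iΔmye tumors. As FPKM these were 0.581, 0.567 and 0.437 against 1.27, 0.851 and 1.08, without overlap, giving 1.01 as log2 fold change (SE 0.27, edgeR adjusted p = 0.742). Its partner Col11a1 had at most 4 counts in any tumor and Col2a1, the main chain of cartilage fibrils, at most 16. Col27a1, the type XXVII chain, had a log2 fold change of 0.41 (SE 0.24).

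**Figure D3:**
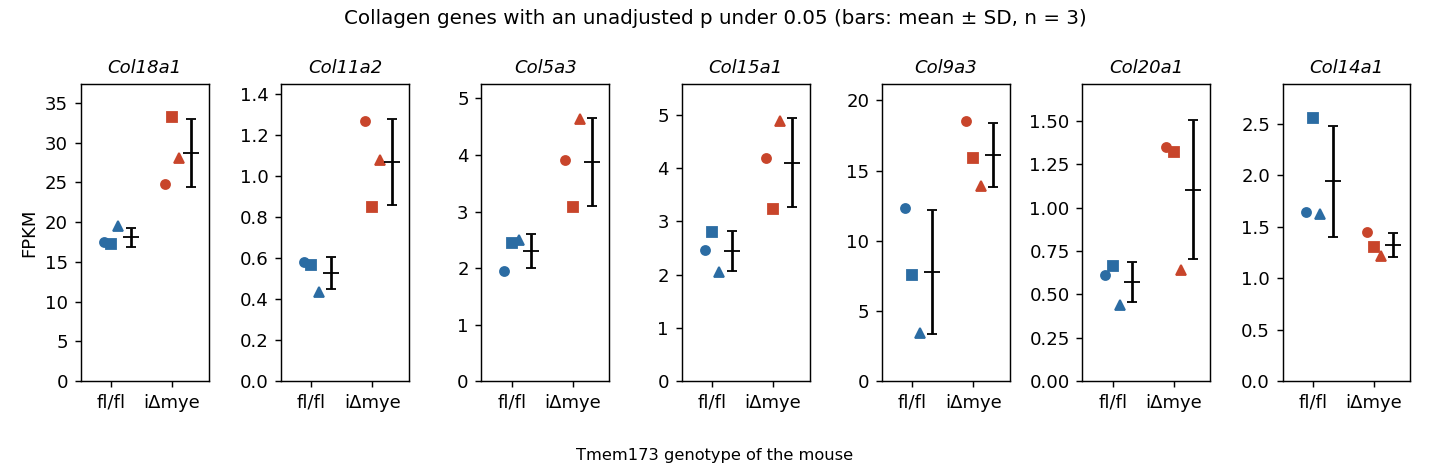
FPKM in each tumor (points, linear axes from 0, fl/fl for Tmem173fl/fl and iΔmye for Tmem173iΔmye) of the 7 collagen genes with an unadjusted p under 0.05, with group mean ± SD (n = 3). The groups are separate for Col18a1, Col11a2, Col5a3, Col15a1 and Col9a3 and, in the other direction, for Col14a1, while Col20a1 overlaps by 1 tumor.

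The fibril-associated genes spread most, with log2 fold changes from -0.55 to 1.05 among the 6 tested. Col9a3 (ENSMUSG00000027570, chr2:180597790-180622189, plus strand), a chain of type IX collagen, had 12.3, 7.55 and 3.45 FPKM in Tmem173fl/fl and 18.5, 15.9 and 13.9 FPKM in Tmem173iΔmye tumors. Each Tmem173iΔmye tumor was higher, but the Tmem173fl/fl tumors were far apart, with means of 7.76 ± 4.43 and 16.1 ± 2.35 (SD, n = 3). The log2 fold change was 1.05 (SE 0.40, edgeR adjusted p = 0.742), and it was 1.56 without Tmem173fl/fl replicate 1 and 0.70 without Tmem173fl/fl replicate 3. Its unadjusted p was 0.05 or more in 3 of 17 alternatives, those without Tmem173fl/fl replicate 2, Tmem173iΔmye replicate 1 or Tmem173iΔmye replicate 2. Exons of Tcfl5 on the other strand cover 6.07% of the exon bases of Col9a3, but Tcfl5 had at most 5 counts. Of the other type IX chains, Col9a2 had 3.72, 7.41 and 3.37 FPKM against 4.78, 5.80 and 6.16 (log2 fold change 0.21, SE 0.31) and Col9a1 had between 10 and 39 counts.

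Col20a1 (ENSMUSG00000016356, chr2:180986535-181018363, plus strand) had 0.610, 0.663 and 0.441 FPKM in Tmem173fl/fl and 1.35, 1.32 and 0.640 FPKM in Tmem173iΔmye tumors. Tmem173iΔmye replicate 3 lay within the Tmem173fl/fl range, and the log2 fold change was 0.95 (SE 0.37, edgeR adjusted p = 0.742) but 0.67 with Y-linked reads as a covariate. Its unadjusted p was 0.05 or more in 7 of 16 alternatives, among them that covariate, both limma fits on FPKM and the fits without Tmem173fl/fl replicate 1 or 3 or Tmem173iΔmye replicate 1 or 2. Exons of BX649560.1 on the same strand cover 1.54% of the exon bases of Col20a1, and BX649560.1 had up to 132 counts. The part of this overlap in the values of Col20a1 was not tested. Col14a1 (ENSMUSG00000022371, chr15:55307750-55520803, plus strand), which binds decorin and regulates fibril diameter, was the 1 member lower at an unadjusted p under 0.05. It had 1.64, 2.56 and 1.62 FPKM in Tmem173fl/fl and 1.45, 1.30 and 1.22 FPKM in Tmem173iΔmye tumors, giving -0.55 as log2 fold change (SE 0.23, edgeR adjusted p = 0.742). The groups did not overlap but came close, at 1.62 and 1.45 FPKM, and without Tmem173fl/fl replicate 2 the log2 fold change was -0.31. Its unadjusted p was 0.05 or more in 10 of 17 alternatives, among them limma voom, the Y-linked covariate and the fits without Tmem173fl/fl replicate 2 or any 1 Tmem173iΔmye tumor. Col12a1, a collagen of fibril surfaces under strain, had 4.48, 4.85 and 5.59 FPKM against 9.05, 5.55 and 5.28, high in Tmem173iΔmye replicate 1 alone. Col16a1 had 6.39, 21.2 and 7.02 FPKM against 9.18, 14.4 and 10.6. Tmem173fl/fl replicate 2 stood above all others for Col16a1, and without it the log2 fold change went from -0.02 to 0.76.

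Col4a1 and Col4a2, the main chains of the basement membrane network of type IV collagen, varied least between tumors of the 26 genes tested. Col4a1 had 35.2, 41.6 and 43.3 FPKM in Tmem173fl/fl and 38.3, 47.0 and 43.5 FPKM in Tmem173iΔmye tumors. Its neighbour Col4a2, transcribed from the other side of the shared promoter printed above, had 27.4, 28.5 and 32.9 FPKM against 35.8, 32.1 and 34.0. The highest tumor exceeded the lowest 1.34 times for Col4a1 and 1.31 times for Col4a2, against 5.37 times for Col9a3 and 5.73 times for Col17a1. Their log2 fold changes were 0.10 (SE 0.15) and 0.20 (SE 0.13), with overlapping groups. The X-linked Col4a5 had 0.524, 0.667 and 0.524 FPKM against 0.262, 0.809 and 0.773, lowest in Tmem173iΔmye replicate 1, and its partner Col4a6 had 4 to 28 counts.

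The genes of type VI collagen, which links cells to the matrix around them, had overlapping groups and a like order of tumors. Col6a1 had 16.2, 15.5 and 32.0 FPKM in Tmem173fl/fl and 14.5, 26.8 and 24.0 FPKM in Tmem173iΔmye tumors. Col6a2 had 7.24, 8.32 and 14.0 FPKM against 6.37, 12.7 and 10.7, and Col6a3 had 5.45, 6.79 and 11.8 FPKM against 5.57, 8.89 and 9.16. Each of the 3 genes was highest in Tmem173fl/fl replicate 3, and Tmem173iΔmye replicate 1 was the lowest or next to lowest tumor for each. The log2 fold changes were 0.03 (SE 0.33), 0.01 (SE 0.32) and -0.02 (SE 0.31), and the sign of each turned in several alternatives. Col6a4, from a separate cluster on chromosome 9, had a log2 fold change of 0.35 (SE 0.30).

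Of the 4 transmembrane collagens, the 2 tested had log2 fold changes below 0. Col17a1, a component of the hemidesmosomes that anchor epithelial cells, had 1.21, 2.19 and 0.569 FPKM in Tmem173fl/fl and 0.382, 1.01 and 1.11 FPKM in Tmem173iΔmye tumors (log2 fold change -0.66, SE 0.55). Without Tmem173fl/fl replicate 2 this was -0.10, and without Tmem173fl/fl replicate 3 it was -1.02. Col23a1 had 1.53, 2.10 and 2.42 FPKM against 1.75, 1.57 and 1.30 (log2 fold change -0.39, SE 0.24). Both sets of values overlapped. Col7a1, the anchoring fibril below the epithelium, had 1.14, 0.910 and 1.93 FPKM against 2.04, 1.45 and 1.69 (log2 fold change 0.38, SE 0.30).

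**Figure D4:**
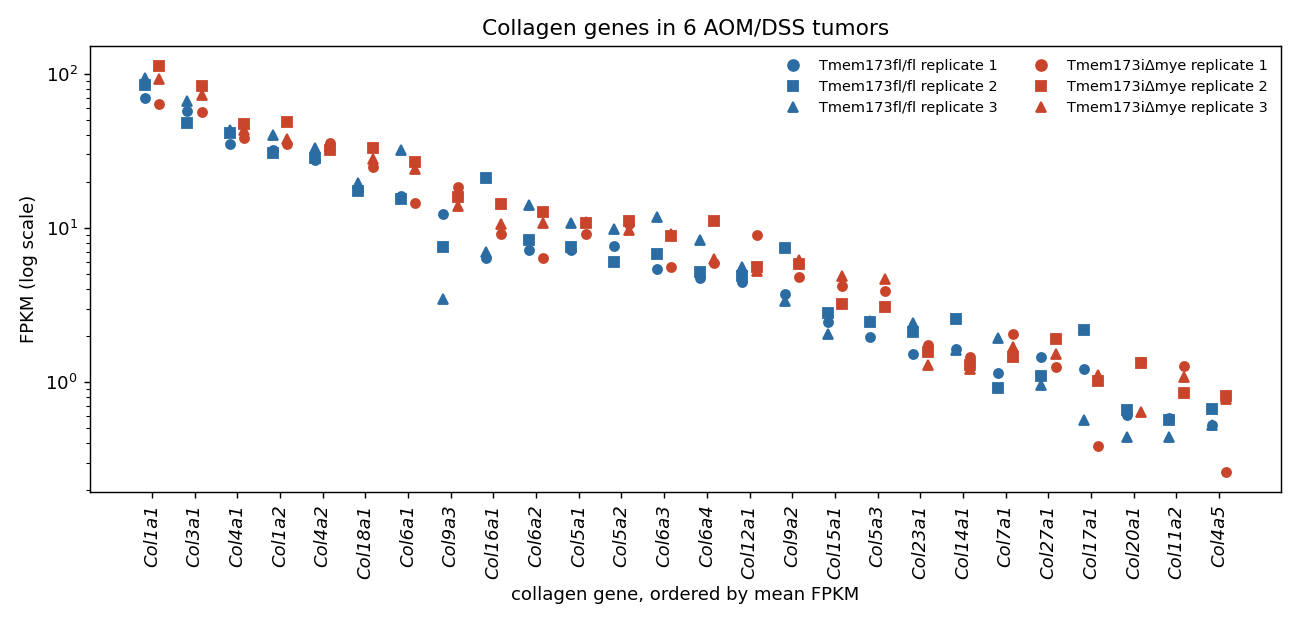
FPKM of the 26 collagen genes tested in each of the 6 tumors (log axis), ordered by mean FPKM, with blue for Tmem173fl/fl, red for Tmem173iΔmye and the shape for the replicate number. Levels run from Col1a1 at a mean of 86.0 FPKM to Col4a5 at 0.593 FPKM, and the colours mix for most genes.

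The other 18 collagen genes were under the limit for testing, the closest being Col13a1 at a mean of 0.395 FPKM, with Col4a5 at 0.593 just inside it. Col6a5 had 9 to 106 counts, Col24a1 20 to 69, Col28a1 7 to 59, Col8a1 20 to 56, Col22a1 25 to 49, Col13a1 20 to 40 and Col9a1 10 to 39 counts. Col4a6 had 4 to 28 counts, Col4a3 15 to 21, Col2a1 6 to 16, Col25a1 1 to 15 and Col4a4 4 to 14 counts. Col10a1, Col8a2, Col26a1, Col19a1, Col11a1 and Col6a6 had at most 9, 6, 5, 3, 4 and 1 counts in any tumor. The chains known from cartilage (Col2a1, Col10a1), the kidney filter (Col4a3, Col4a4) and the cornea (Col8a2) are among these. Of the 18, the groups did not overlap for Col22a1, higher, and Col25a1, lower in Tmem173iΔmye tumors, 2 of 18 where 12.5% of all genes tested did not overlap.

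The balance between chains of 1 collagen type, and between the related types I and III and XV and XVIII, was compared as 9 FPKM ratios within each tumor, which do not depend on how libraries are scaled. None differed between the genotypes beyond the spread between tumors, with exact two-sided permutation p-values from 0.2 to 0.8 and an adjusted p of 0.8 for each, where 3 tumors against 3 cannot give less than 0.1. Col6a1/Col6a2 was the steadiest, from 1.87 to 2.28 over the 6 tumors, although Col6a1 itself ranged from 14.5 to 32.0 FPKM. Col4a1/Col4a2 was 1.28, 1.46 and 1.31 in Tmem173fl/fl and 1.07, 1.46 and 1.28 in Tmem173iΔmye tumors, a log2 difference of -0.10 (exact permutation p = 0.6). Col1a1/Col1a2 was 2.20, 2.79 and 2.32 against 1.82, 2.31 and 2.44 (log2 difference -0.16, exact permutation p = 0.5), and Col3a1/Col1a1 was 0.823, 0.567 and 0.710 against 0.893, 0.744 and 0.786 (log2 difference 0.22, exact permutation p = 0.3). Col15a1/Col18a1 ranged from 0.0973 to 0.174 with a log2 difference of 0.08 (exact permutation p = 0.8). Col8a1/Col8a2 and Col4a5/Col4a6 rest on as few as 1 and 4 counts of a gene. The size of a ratio, unlike its difference between groups, depends on the gene length used. The deposited lengths are those of all annotated exons together for 42 of the 44 genes, 12426 bases for Col1a2 where its longest transcript has 5348. Per kilobase of longest transcript, Col1a1/Col1a2 was 0.866 to 1.33 in place of 1.82 to 2.79, and Col6a1/Col6a2 was 1.18 to 1.44.

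Genes that make, trim, bind or accompany collagen were examined from lists chosen with earlier results of these data known, and none had an adjusted p under 0.05 in edgeR. In the list of enzymes and chaperones of collagen folding, 12 of 16 genes tested lay above 0 on the log2 scale and 1 had an unadjusted p under 0.05 (6.25%), beside 49.4% and 6.14% of all genes. The median was 0.11, and 0.30 without Tmem173fl/fl replicate 3. That gene was Serpinh1, which encodes HSP47, the chaperone dedicated to procollagen, with 24.6, 29.7 and 23.3 FPKM in Tmem173fl/fl and 46.3, 47.9 and 33.9 FPKM in Tmem173iΔmye tumors. Its groups did not overlap (log2 fold change 0.72, SE 0.17, edgeR adjusted p = 0.742). The prolyl 3-hydroxylase genes P3h1 and P3h3 had log2 fold changes of 0.55 (SE 0.25) and 0.46 (SE 0.23), both without overlap. Of 9 processing and crosslinking genes tested, 8 were above 0 and 0 had an unadjusted p under 0.05, with a median of 0.11 that was -0.028 without Tmem173fl/fl replicate 1 and 0.38 without Tmem173fl/fl replicate 3. Loxl1, a lysyl oxidase, had 0.49 (SE 0.25), Pcolce, an enhancer of propeptide removal, 0.39 (SE 0.19) and the propeptidase gene Adamts2 0.21 (SE 0.18) as log2 fold changes.

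Of 8 collagen receptor genes tested, 6 were above 0 and 2 had an unadjusted p under 0.05, beside 49.4% and 6.14% of all genes, and the median was 0.17, or 0.36 without Tmem173fl/fl replicate 2. Mrc2, which encodes the endocytic receptor that takes up collagen fragments, had 209, 222 and 200 counts in Tmem173fl/fl and 433, 405 and 298 counts in Tmem173iΔmye tumors (log2 fold change 0.83, SE 0.19, edgeR adjusted p = 0.742). Ddr2, a receptor tyrosine kinase for fibrillar collagen, had 1.64, 1.53 and 1.33 FPKM against 2.15, 2.11 and 2.06 (log2 fold change 0.49, SE 0.16). In both genes each Tmem173iΔmye tumor was above each Tmem173fl/fl tumor. The integrin gene Itga10 had a log2 fold change of 0.73 (SE 0.40) with overlap. Of 15 genes of other fibril-associated matrix proteins tested, 13 were above 0, with a median of 0.32. At an unadjusted p under 0.05, 2 were higher and 1 was lower, beside 3.23% higher and 2.90% lower among all genes. Bgn, a small proteoglycan of fibrils, had a log2 fold change of 0.70 (SE 0.16), the collagen-binding Sparc 0.44 (SE 0.17) and the matricellular Thbs2 -1.08 (SE 0.30), each without overlap between the groups.

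The laminins and other partners of type IV collagen had a median log2 fold change of -0.06 (-0.22 without Tmem173iΔmye replicate 2). Of 13 genes tested 4 were above 0, beside 49.4% of all genes. An unadjusted p under 0.05 was found for 1 of them, Lama1 (7.69%), beside 6.14% of all genes. Lama1 had 0.59 (SE 0.17, groups separate) and Lamb2 -0.47 (SE 0.20) as log2 fold changes. In the list of growth factors, receptors and targets known to drive collagen synthesis, 6 of 10 genes tested were above 0, with a median of 0.03 that was -0.092 without Tmem173fl/fl replicate 3 and -0.098 without Tmem173iΔmye replicate 2. Pdgfb, a growth factor for mesenchymal cells, had -0.36 (SE 0.20) and Tgfbr1, a TGF-β receptor, -0.31 (SE 0.18) as log2 fold changes, both with overlap.

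**Figure D5:**
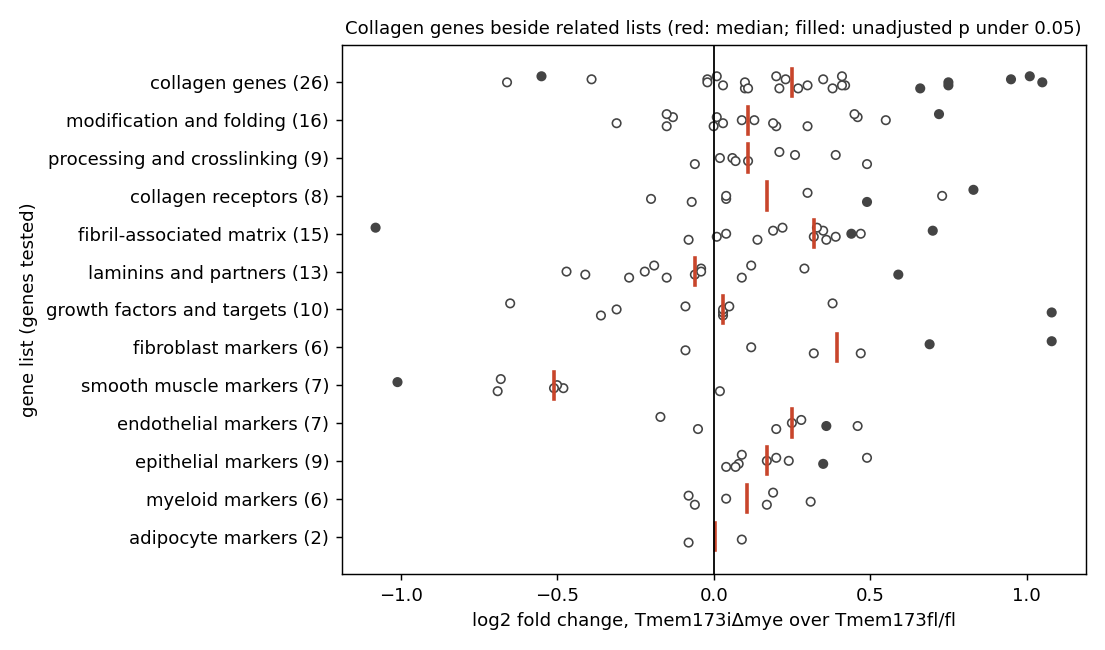
Log2 fold change of Tmem173iΔmye over Tmem173fl/fl for each tested gene of the collagen family and of 12 related lists (points, filled at an unadjusted p under 0.05), with the median in red and the number of genes tested in parentheses. The medians run from -0.51 for smooth muscle markers to 0.39 for fibroblast markers, with 0.25 for the collagen genes.

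Markers of the cells that make collagen did not go one way. The summed CPM (counts scaled to a common library size) of 6 fibroblast markers tested was 364, 389 and 505 in Tmem173fl/fl and 475, 575 and 443 in Tmem173iΔmye tumors. Of the 6, 5 had a log2 fold change above 0, with Pdgfra at -0.09 (SE 0.26) below it. Such counts stand here beside 49.4% of all genes above 0. Dpt, a fibroblast matrix protein, had a log2 fold change of 1.08 (SE 0.20), Thy1 0.69 (SE 0.28) and Dcn, which also stands in the list of fibril-associated matrix, 0.32 (SE 0.18). The sum of 7 smooth muscle markers was 428, 301 and 409.9 against 249.8, 219.7 and 386, with 1 of 7 above 0 and Des at -1.01 (SE 0.39), Cnn1 at -0.68 (SE 0.36) and Synpo2 at -0.69 (SE 0.37). For 7 endothelial markers it was 100.3, 93.7 and 102 against 119.8, 96.6 and 118, for 9 epithelial markers 12459 to 14857 against 13887 to 16004, and for 6 myeloid markers 387 to 675 against 393 to 647. Pecam1 had a log2 fold change of 0.36 (SE 0.16) without overlap, Cdh5 0.25 (SE 0.20) and Kdr 0.28 (SE 0.22). Of the 7 endothelial markers 5 were above 0, with Tek at -0.17 (SE 0.27) and Vwf at -0.05 (SE 0.19) below it. Of the 9 epithelial markers 9 were above 0. Vil1 had a log2 fold change of 0.35 (SE 0.15), Epcam 0.24 (SE 0.18) and Cdx2 0.49 (SE 0.45). The myeloid Cd14, Adgre1 and Itgam had 0.31 (SE 0.22), 0.19 (SE 0.20) and 0.17 (SE 0.31). Of the 6 myeloid markers 4 were above 0, with Lyz2 at -0.06 (SE 0.37) and Cd68 at -0.08 (SE 0.25) below it. The adipocyte markers Adipoq, Plin1 and Lep were at 0 in every tumor, with Cidec at 0.09 (SE 0.42) and Fabp4 at -0.08 (SE 0.48), and none of 5 enteric glia markers passed the limit for testing. The part of these cell types in the collagen values was not tested.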

How the data were processed

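RNA-seq of 3 Tmem173fl/fl and 3 Tmem173iΔmye AOM/DSS tumors was analysed from 1 deposited table on GRCm38. The table holds whole-number counts and FPKM values for each gene, both made by the authors and deposited as such. CASAVA 1.8, fastp, HISAT2 2.0.5, featureCounts 1.5.0-p3 and DESeq2 1.20.0 are named in the submitters' processing notes. The library kit (NEBNext Ultra RNA) does not mark strand, so reads of overlapping antisense genes cannot be told apart. The deposited FPKM equals counts divided by gene length and by 1 scale per tumor. The authors' own group means, fold changes and p-values were not used.

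For 16426 genes whose FPKM averaged 0.5 or more, counts entered the quasi-likelihood model of edgeR 4.0.16 under R 4.3.3. Libraries were scaled by TMM, group was the sole term, and p-values were adjusted by Benjamini-Hochberg over all these genes. The SE of a log2 fold change was taken as its size over the root of the F statistic. Ratios of FPKM were compared by exact two-sided permutation over tumors. DESeq2 1.42.0, limma 3.58.1 and the other alternatives are described with their effects. The count test was checked on simulated counts. Exons came from GENCODE M21 and promoters from RefSeq.

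The members and lists were chosen with earlier results of these data known. Collagen genes named are the 10 with the highest mean FPKM, those past the study's limits, the 2 with the lowest p of each class and the chains of the ratios, and 3 genes of each other list were named by lowest p. In the lists, 1 symbol of the folding enzymes (Tango1) and 1 of the growth factor list (Ccn2) had no match. Both genes were tested under the symbols Mia3 and Ctgf, which stand in the same lists. Some genes that this rule names are not reported here. The other members were added to complete the family, chosen after their values were seen. Totals of 15329810 to 16533732 counts limit genes of a few counts.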

Additional observations from a re-analysis of the deposited data

How the results depend on the processing

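Alternatives covered the filter, the scaling, the test, the pseudocount, covariates and leaving out each tumor. Collagen genes with an adjusted p under 0.05 numbered 0 in each of them, and no alternative shifted the median log2 fold change of all genes by over 0.1. Over all genes, the number with an adjusted p under 0.05 was 6 with no filter, 28 with DESeq2 and 0 to 1 without single tumors. The number past the study's limits was 349, and it was 872 with no filter, 209 with protein-coding genes alone, 136 with limma on log2(FPKM + 1), 211 with Y-linked reads as a covariate and 218 to 636 without single tumors. Collagen genes past these limits numbered 2, but 1 with a mean FPKM of at least 1, with library sizes without the 20 highest genes and with limma on log2(FPKM + 1) or log2(FPKM + 0.1), 0 with Y-linked reads as a covariate and 0 to 3 without single tumors. Those with an unadjusted p under 0.05 numbered 4 to 9 without single tumors, and those above 0 numbered 17 to 23. The collagen median of 0.25 was 0.11 with no filter, where all 44 genes enter, and 0.17 to 0.39 without single tumors.

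Same-numbered tumors had correlations of their deviations from the group means of 0.315, 0.00846 and 0.154. Tmem173fl/fl replicates 1 and 3 went best with the Tmem173iΔmye tumor of the same number. Tmem173fl/fl replicate 2 went best with Tmem173iΔmye replicate 3 (0.223). The numbers were not taken to pair the tumors in the main fit. In the fit with a replicate block, 377 genes passed the study's limits, 2 collagen genes did, 6 had an unadjusted p under 0.05, 22 were above 0 and the collagen median was 0.29, and no ratio changed sign.

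Signs turned for genes near 0. Col16a1 (-0.02) was 0.19 with limma voom, 0.15 and 0.18 with limma on log2(FPKM + 1) and log2(FPKM + 0.1), 0.18 with the replicate block, 0.23 with Y-linked reads as a covariate and -0.3 to 0.76 without single tumors. Col6a3 (-0.02) was 0.017, 0.014, 0.019, 0.017 and 0.19 under these same settings and -0.24 to 0.37 without single tumors. Col4a5 (0.11) was -0.049 with limma voom, -0.018 with limma on log2(FPKM + 0.1), -0.021 with the block and -0.14 to 0.47 without single tumors. Col6a2 (0.01) was -0.020 with library sizes without the 20 highest genes. Without single tumors, Col1a1 ranged from -0.096 to 0.29, Col6a1 ranged from -0.15 to 0.46, Col6a2 ranged from -0.21 to 0.35, Itgam ranged from -0.17 to 0.35, Cidec ranged from -0.17 to 0.32 and Fabp4 from -0.48 to 0.47. Cidec was -0.14 with Y-linked reads as a covariate, and Fabp4 was 0.14 with limma voom, 0.019 and 0.13 with limma on log2(FPKM + 1) and log2(FPKM + 0.1) and 0.12 with the block. Among ratios, without single tumors, the log2 difference of Col4a1/Col4a2 ranged from -0.21 to 0.02, that of Col6a1/Col6a2 from -0.032 to 0.11, that of Col6a3/Col6a1 from -0.14 to 0.053, that of Col8a1/Col8a2 from -1.95 to 0.083, that of Col15a1/Col18a1 from -0.089 to 0.36. Dpt alone of the named genes had an adjusted p under 0.05 in any alternative (adjusted p = 0.00695 from DESeq2). The cause of these moves was not tested.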
